A study of Mus musculus with 2 samples.

Results

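Described here are 10 genes that set the pace of G1, the phase of the cell cycle before DNA synthesis, in mouse primary chondrocytes and primary dermal fibroblasts. They are the 3 D cyclin genes, the genes of the 2 kinases they bind, and 5 genes of CDK inhibitors, and they were chosen by name from the 24421 rows of the deposited count table. The imprinted inhibitor gene *Cdkn1c* was left out by that rule. All 10 were found in the table, and each had more than 10 counts over both libraries. RNA-Seq was done on 1 library of each cell type, and both came from newborn mice. The chondrocytes (labelled Primary Chondrocyte, tissue Rib Cartilage) were released from rib cartilage with collagenase and were used within 2 passages. The dermal fibroblasts (labelled Primary Dermal Fibloblasts, tissue Skin) were released from dorsal skin with collagenase, and their passage is not given in the sources used here. No genotype, treatment or strain is given for either library, nor whether animals were pooled.

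D cyclins bind CDK4 or CDK6 and start the phosphorylation of the retinoblastoma proteins, which frees E2F transcription factors to switch on genes for DNA synthesis. INK4 proteins (encoded by *Cdkn2a*, *Cdkn2b*, *Cdkn2c* and *Cdkn2d*) bind CDK4 and CDK6 and keep D cyclins off them. Cip/Kip proteins (p21 from *Cdkn1a*, p27 from *Cdkn1b* and p57 from *Cdkn1c*) inhibit CDK2 complexes and can also help D cyclins and CDK4 assemble. In growth cartilage this system helps to set when proliferating chondrocytes leave the cell cycle, and in cultured cells *Cdkn2a* and *Cdkn2b* are known for their increase with time in culture.

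The libraries held 18788599 counts in chondrocytes and 17563724 in dermal fibroblasts. Levels are CPM, the field's unit for counts scaled to library size, with TMM factors (0.954 and 1.05) that limit the weight of a few very abundant genes. A fold is the ratio of 2 CPM values, with a 95% Clopper-Pearson interval that covers counting error only. With 1 library per cell type there was no replicate check and no test, so the variation between cultures or animals is not known here. In bulk RNA, fewer cells of a type and less RNA per cell cannot be told apart. The labelled cell types had their markers: 11 of 11 chondrocyte markers were over 2-fold higher in chondrocytes (*Col2a1* and *Matn1* at 0 counts in dermal fibroblasts), and 10 of 11 fibroblast markers were over 2-fold higher in dermal fibroblasts. Markers named for other cells were present too, and which cells made these transcripts was not tested. The fibroblast markers summed to 7611 CPM in chondrocytes, above the sums that follow, and to 52748 CPM in dermal fibroblasts. Of 14 skeletal muscle markers, 7 were over 2-fold higher in chondrocytes and 0 in dermal fibroblasts, none was at 0 in either library, and their summed level was 2322 CPM in chondrocytes and 1592 CPM in dermal fibroblasts. Keratinocyte markers summed to 9.21 and 319.7 CPM (7 of 9 with at least 10 counts over 2-fold higher in dermal fibroblasts, with *Krt6a* and *Dsg3* at 0 in chondrocytes), endothelial markers to 15.5 and 53.5 CPM (6 of 7), melanocyte markers to 9.76 and 61.9 CPM (5 of 6, with *Dct* and *Tyrp1* at 0 in chondrocytes), and macrophage markers to 120.8 and 193.4 CPM (2 of 9).

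*Cdkn2a* and *Cdkn2b* were the only members past 2-fold, and both were higher in dermal fibroblasts. For this reason the bases before their annotated starts are shown first. They lie side by side on the minus strand of chromosome 4 of GRCm38 (*Cdkn2a* from 89274473 to 89294619, *Cdkn2b* from 89306289 to 89311032), 11669 bases apart. *Cdkn2a* has 2 annotated starts. The distal one begins the transcript of p19Arf, which acts through p53, and the proximal one begins the transcript of the CDK4/6 inhibitor p16Ink4a. The deposited counts are per gene symbol, so the 2 products cannot be told apart. The 250 bases before each start, from RefSeq on GRCm38.p6, are given 5′ to 3′ on the minus strand, with GC boxes (GGGCGG) and E2F-like sites (TTTNNCGC) of either strand in capitals.
Cdkn2a distal start (chr4:89294620-89294869): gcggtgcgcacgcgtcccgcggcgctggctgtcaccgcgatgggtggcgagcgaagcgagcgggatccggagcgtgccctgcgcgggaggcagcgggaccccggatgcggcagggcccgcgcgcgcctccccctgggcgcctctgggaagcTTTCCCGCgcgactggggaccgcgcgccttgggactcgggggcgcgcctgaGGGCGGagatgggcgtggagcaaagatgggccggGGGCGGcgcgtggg
Cdkn2a proximal start (chr4:89282193-89282442): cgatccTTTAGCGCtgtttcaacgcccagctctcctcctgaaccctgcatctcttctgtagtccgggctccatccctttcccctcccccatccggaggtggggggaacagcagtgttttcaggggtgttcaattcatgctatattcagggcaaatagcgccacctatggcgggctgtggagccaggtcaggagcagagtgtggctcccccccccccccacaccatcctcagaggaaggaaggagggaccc
Cdkn2b start (chr4:89311033-89311282): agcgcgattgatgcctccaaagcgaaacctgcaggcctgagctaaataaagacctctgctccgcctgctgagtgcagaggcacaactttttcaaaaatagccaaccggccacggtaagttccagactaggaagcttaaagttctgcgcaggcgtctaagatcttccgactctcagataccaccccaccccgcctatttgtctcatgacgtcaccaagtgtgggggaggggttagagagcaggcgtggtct
The window of the distal *Cdkn2a* start held 2 GC boxes, 1 E2F-like site beginning 99 bases before the start, and 40 CpG, more than in 98.7% of all promoters of this length. The window of the proximal start held 1 E2F-like site, beginning 244 bases before the start, no GC box and 7 CpG. The window of *Cdkn2b* held neither motif and 12 CpG. Of 32851 promoters, 32.7% held a GC box and 4.28% an E2F-like site, and the median was 6 CpG. Windows were found for 8 of the 10 members, and those of *Ccnd1* and *Ccnd2* were not analysed here. A match of letters is a description of the window only.

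The dermal fibroblast library had more *Cdkn2a* and *Cdkn2b* reads than the chondrocyte library. *Cdkn2a* had 16 counts in the chondrocyte library (0.893 CPM) and 62 in the dermal fibroblast library (3.37 CPM). Dermal fibroblasts were 3.77-fold higher (interval 2.15 to 7.0), and the intervals of the 2 libraries did not overlap. *Cdkn2b*, which encodes p15 and is known as a target of TGF-beta signaling, had 127 counts (7.09 CPM) in chondrocytes, against 291 (15.8 CPM) in dermal fibroblasts. Dermal fibroblasts were 2.23-fold higher (interval 1.81 to 2.77), so the interval reached below 2-fold. The sum of both genes was 2.40-fold higher there (interval 1.97 to 2.94). The long noncoding RNA *Gm12610* spans the whole of *Cdkn2b* in RefSeq, and the sources used here do not say whether reads were counted by strand. Both genes were higher in the same library as most keratinocyte, endothelial, melanocyte and macrophage markers given above. The part of these cells in the difference was not tested. Since the passage of the dermal fibroblasts is not given, time in culture cannot be told apart from cell type. Its part was not tested either.

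The genes on either side of the pair did not share its direction. *Mtap*, which encodes a methionine salvage enzyme and is the nearest protein-coding gene of the table on the *Cdkn2a* side (chromosome 4, 89137370 to 89181090), was 1.85-fold higher in chondrocytes (1887 and 1045 counts, interval 1.72 to 2.0). *Dmrta1*, the nearest on the *Cdkn2b* side (89688198 to 89694766), had 12 counts in chondrocytes and none in the other library. With the 0 set to the floor of 3 counts, the fold was 4.11 toward chondrocytes, a value that depends on the floor. The counting interval reached down to 2.85. These neighbors were added after the values of *Cdkn2a* and *Cdkn2b* were seen.

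*Cdkn2c*, which encodes the INK4 protein p18, had the most counts of the INK4 members in both libraries and did not share the direction of the other two. It lies elsewhere on chromosome 4 (109660876 to 109666756) and had 623 and 549 counts, or 34.8 CPM in chondrocytes and 29.8 CPM in dermal fibroblasts. The level was 1.17-fold higher in chondrocytes (interval 1.04 to 1.31). With scaling by total counts it was 1.06, with an interval that spanned 1. *Cdkn2d*, the remaining INK4 gene, is outside the set of 10 and had 269 counts in each library, a fold of 1.03 (interval 0.864 to 1.22). Within a library, the share of each INK4 gene does not depend on the scaling between libraries. All *Cdkn2a* counts are taken as INK4 here, though p19Arf is a product of that gene too. Per kilobase of transcript, *Cdkn2c* made up 69.9% of the 3 INK4 members in chondrocytes (interval 65.9 to 73.8) and 44.6% in dermal fibroblasts (41.3 to 48.0). *Cdkn2b* made up 25.3% (21.7 to 29.1) and 42.0% (38.5 to 45.4), and *Cdkn2a* 4.78% (2.77 to 7.58) and 13.4% (10.5 to 16.7). For each of the 3 genes the intervals of the libraries did not overlap, nor did those of the shares in plain counts. In chondrocytes *Cdkn2c* stood well above *Cdkn2b* per kilobase (14.1 against 5.09 CPM per kb), whereas in dermal fibroblasts the levels were 12.1 and 11.3 CPM per kb, with overlapping intervals, and with exon union lengths *Cdkn2b* (11.3) came before *Cdkn2c* (11.1).

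**Figure D1:**
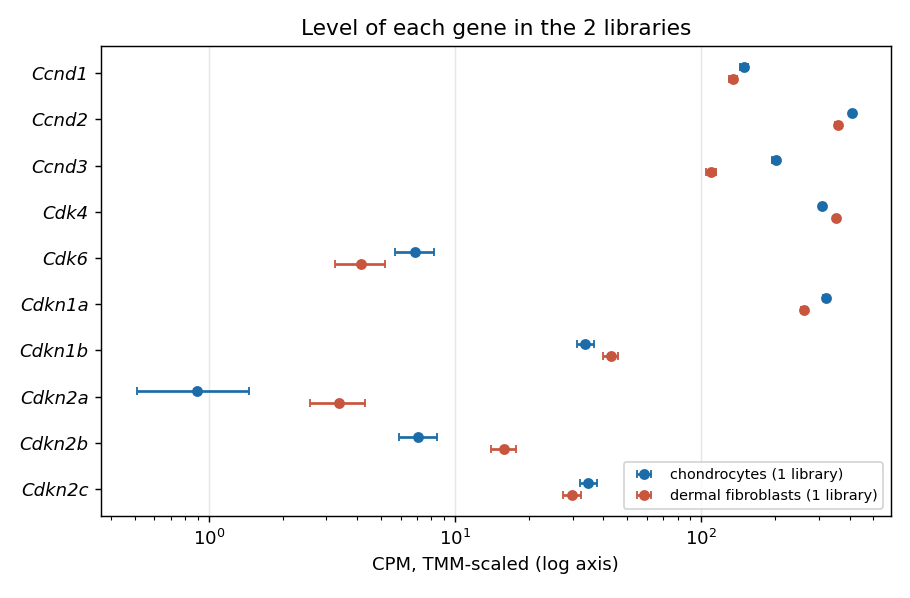
Level of each of the 10 genes (TMM-scaled CPM, log axis) in chondrocytes and dermal fibroblasts, with bars for 95% Poisson intervals that cover counting error only. *Cdkn2a* (0.893 and 3.37 CPM) and *Cdkn2b* (7.09 and 15.8 CPM) sit lower in chondrocytes with intervals that do not meet, and *Ccnd3* sits higher (200.2 and 109.4 CPM).

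Among the D cyclins, *Ccnd3* differed most between the libraries. *Ccnd3* (chromosome 17, 47505051 to 47599689), the D cyclin known for its increase in differentiating muscle and in lymphocytes, had 3588 counts (200.2 CPM) in chondrocytes, against 2015 (109.4 CPM) in dermal fibroblasts. The level was 1.83-fold higher in chondrocytes (interval 1.73 to 1.93), short of 2-fold. *Ccnd2* (chromosome 6, 127125162 to 127152188), which responds to growth factors in many cell types, had 7347 and 6609 counts, or 409.9 and 359.0 CPM, a level 1.14-fold higher in chondrocytes (interval 1.10 to 1.18). *Ccnd1* (chromosome 7, 144929931 to 144939831), the D cyclin of mitogen-stimulated fibroblasts and of proliferating growth plate chondrocytes, had 2675 and 2472 counts, or 149.2 and 134.3 CPM. Its level was 1.11-fold higher in chondrocytes (interval 1.05 to 1.17), and with scaling by total counts it was 1.01, with an interval that spanned 1. Summed over the 3 genes, D cyclin counts were 1.26-fold higher in chondrocytes (interval 1.23 to 1.29).

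The make-up of the D cyclins differed accordingly. Per kilobase, *Ccnd3* was the leading D cyclin in chondrocytes, with 45.9% of the 3 genes (interval 44.9 to 46.8), and *Ccnd2* followed with 34.8% (34.0 to 35.6). In dermal fibroblasts *Ccnd2* led with 41.8% (40.9 to 42.7), and *Ccnd3* had 34.4% (33.3 to 35.5). *Ccnd1* had the smallest share in both, 19.3% in chondrocytes and 23.8% in dermal fibroblasts. The order of *Ccnd2* and *Ccnd3* within chondrocytes rests on transcript length, since *Ccnd2* (5701 bases) is longer than *Ccnd3* (2113 bases), and in plain counts *Ccnd2* had the largest share in both libraries. The larger share of *Ccnd3* in chondrocytes than in dermal fibroblasts was seen in plain counts as well (26.4% and 18.2%). *Ccnd3* was higher in the same library as most skeletal muscle markers, as were *Ccnd1*, *Ccnd2*, *Cdk6*, *Cdkn1a* and *Cdkn2c*. With 1 library per cell type, a shared side does not show a link. The part of muscle cells in the *Ccnd3* difference was not tested. The muscle transcription factors *Myod1* and *Myog* were 4.82-fold and 2.10-fold higher in chondrocytes, while *Actc1* and *Myh3*, the most abundant muscle markers, lay at folds of 0.939 and 1.23. The span of *Ccnd3* shares 359 bases with *Bysl* (998 and 665 counts) and 7217 with the noncoding *Gm41590*, that of *Ccnd1* shares 818 bases with *Oraov1* (266 and 319 counts), and that of *Ccnd2* shares 2800 bases with *9330179D12Rik* (30 and 16 counts). RefSeq also lists a pseudogene of *Ccnd3* on chromosome 4, and how reads that match both were treated is not given in the sources used here.

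**Figure D2:**
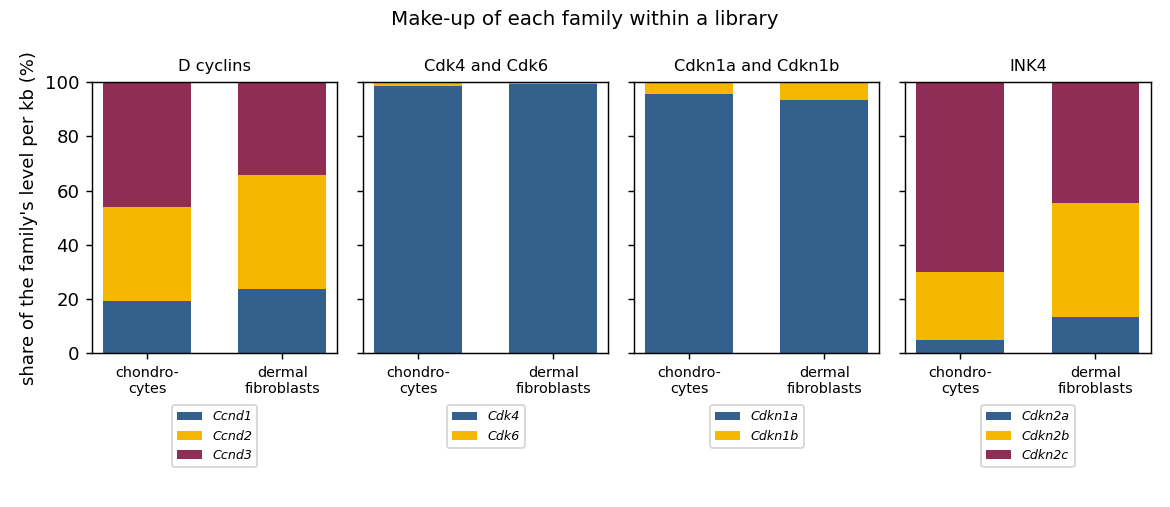
Stacked bars show, for each family, the share of its level per kilobase of transcript (y axis, percent) that each gene held in chondrocytes and in dermal fibroblasts. *Ccnd3* held 45.9% of the D cyclins in chondrocytes and 34.4% in dermal fibroblasts, and *Cdkn2c* held 69.9% and 44.6% of the 3 INK4 members.

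The kinase genes differed in opposite directions and were far apart in level. *Cdk4* (chromosome 10, 127063535 to 127067288) had 5564 counts (310.4 CPM) in chondrocytes, against 6499 (353.0 CPM) in dermal fibroblasts, which were 1.14-fold higher (interval 1.10 to 1.18). *Cdk6* (chromosome 5, 3341004 to 3531008), the kinase that prevails in blood cells, had 123 and 76 counts, or 6.86 and 4.13 CPM, and was 1.66-fold higher in chondrocytes (interval 1.24 to 2.24). Per kilobase, *Cdk4* made up 98.8% of both kinases in chondrocytes (interval 98.6 to 99.0) and 99.4% in dermal fibroblasts (99.2 to 99.5). Nearly all transcripts of the D cyclin kinases were thus those of *Cdk4* in either cell type. The span of *Cdk4* touches that of *Tspan31* over 2 bases. That of *Cdk6* overlaps the noncoding *Gm29868* over 19218 bases and *Gm36470* over 2556 bases.

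Both Cip/Kip members differed by less than 1.5-fold under every scaling. *Cdkn1a* (chromosome 17, 29090979 to 29100722), a target of p53 that also increases as muscle cells leave the cell cycle, had 5737 counts (320.1 CPM) in chondrocytes, against 4800 (260.7 CPM) in dermal fibroblasts. Its level was 1.23-fold higher in chondrocytes (interval 1.18 to 1.28). It was higher in the same library as most skeletal muscle markers as well, and the part of muscle cells was not tested. *Cdkn1b* (chromosome 6, 134920401 to 134925525), whose protein is controlled mainly by degradation, had 605 and 787 counts, or 33.8 and 42.7 CPM, a level 1.27-fold higher in dermal fibroblasts (interval 1.14 to 1.41). Per kilobase, *Cdkn1a* made up 95.8% of the pair in chondrocytes (interval 95.4 to 96.1) and 93.6% in dermal fibroblasts (93.1 to 94.0).

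**Figure D3:**
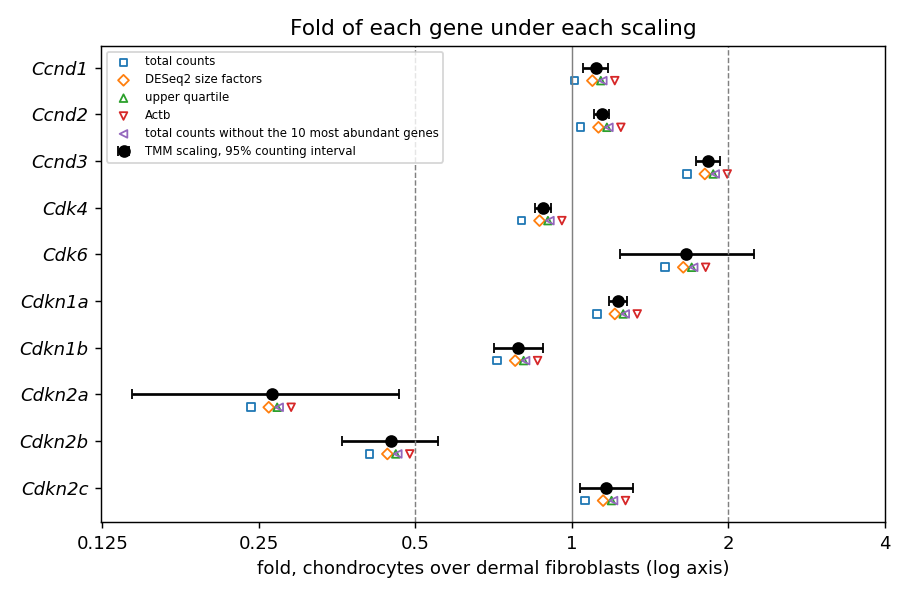
Fold of each gene (x axis, chondrocytes over dermal fibroblasts, log axis), as TMM values with 95% counting intervals beside the other 5 scalings, with lines at equality and at 2-fold. *Cdkn2a* and *Cdkn2b* lie past 2-fold toward dermal fibroblasts under all of these scalings, and *Ccnd3* (1.66 to 1.99) stays short of 2-fold toward chondrocytes.

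Of the 10 members, 0 were over 2-fold higher in chondrocytes, where 12.0% of all 14730 genes with at least 10 counts were. In the other direction 2 members (*Cdkn2a* and *Cdkn2b*) passed, against a background of 16.2%, and neither count is a result about the members beside that background. At a fold over 1.5, the count was 2 members in chondrocytes (*Ccnd3* and *Cdk6*, background 20.2%) and 2 in dermal fibroblasts (again *Cdkn2a* and *Cdkn2b*, background 24.5%). The whole interval lay beyond 2-fold for 0 members in chondrocytes (background 7.0%) and for *Cdkn2a* alone in dermal fibroblasts (background 10.5%). The interval left out 1 for all 10 members, for 6 toward chondrocytes (background 34.5%) and for 4 toward dermal fibroblasts (background 35.4%), a rule that abundant genes pass at small folds. With total counts, the intervals of *Ccnd1* and *Cdkn2c* spanned 1. The median log2 fold of the members was 0.17, beside 0.00 over all genes, whose quartiles were -0.56 and 0.45.

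**Figure D4:**
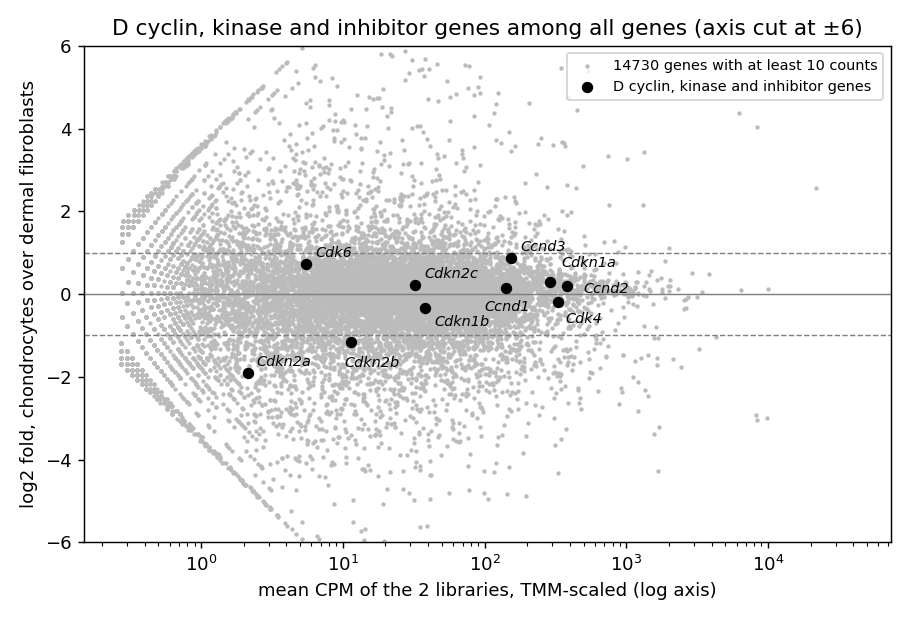
Gray points are genes with at least 10 counts over both libraries (14730, less those past 6 log2 units in either direction), by mean CPM (x axis, log) and log2 fold of chondrocytes over dermal fibroblasts (y axis). The 10 members are in black, and 8 of them lie between the dashed lines that mark 2-fold, *Cdkn2a* (-1.92) and *Cdkn2b* (-1.16) below.

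Per kilobase of transcript, the members spanned a wide range of levels in each library. In chondrocytes the order ran from *Cdkn1a* (167.6 CPM per kb) through *Cdk4* (151.2), *Ccnd3* (94.7), *Ccnd2* (71.9), *Ccnd1* (39.9), *Cdkn2c* (14.1), *Cdkn1b* (7.41), *Cdkn2b* (5.09) and *Cdk6* (1.84) to *Cdkn2a* (0.961). The counting intervals of neighbors in this order overlapped for *Cdk6* and *Cdkn2a* only. In dermal fibroblasts *Cdk4* (171.9 CPM per kb) stood above *Cdkn1a* (136.5), followed by *Ccnd2* (63.0), *Ccnd3* (51.8), *Ccnd1* (35.9), *Cdkn2c* (12.1), *Cdkn2b* (11.3), *Cdkn1b* (9.39), *Cdkn2a* (3.63) and *Cdk6* (1.11). There, only *Cdkn2c* and *Cdkn2b* overlapped as neighbors. The most abundant of these transcripts were high among all genes, *Cdk4* above 97.3% of 13116 genes with a length in chondrocytes and above 97.7% in dermal fibroblasts, while *Cdk6* was above 26.2% and 19.6% of genes. The order of *Cdk4* and *Cdkn1a* in dermal fibroblasts turned when the union of all exons was taken as the length (108.7 and 117.3 CPM per kb).

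Balances between the families were compared within each library, where the scaling between libraries plays no part. Per kilobase, D cyclin transcripts were 1.35 times those of *Cdk4* and *Cdk6* in chondrocytes and 0.871 times in dermal fibroblasts. With exon union lengths the ratios were 2.05 and 1.33, and in plain counts 2.39 (interval 2.32 to 2.47) and 1.69 (1.64 to 1.74). The direction between libraries was thus the same, and the side of 1 in dermal fibroblasts depended on length. D cyclin transcripts per kilobase were 10.3 times those of the 3 INK4 members in chondrocytes and 5.57 times in dermal fibroblasts. In plain counts these ratios were 17.8 (interval 16.5 to 19.1) and 12.3 (11.5 to 13.2). All *Cdkn2a* counts are taken as INK4 in them, and the part from p19Arf is not known. Per kilobase, the pair *Cdkn1a* and *Cdkn1b* stood at 0.847 times the D cyclins in chondrocytes and 0.968 times in dermal fibroblasts. In plain counts these ratios were 0.466 (interval 0.452 to 0.480) and 0.504 (0.487 to 0.520). They leave out *Cdkn1c*, the other Cip/Kip gene, with 91.9 CPM per kb in chondrocytes and 37.7 in dermal fibroblasts. The pair is therefore not the balance of the whole Cip/Kip family. All of these balances are ratios of transcripts, and proteins were not measured here.

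Genes that act beside or after the D cyclin kinases were compared from lists, beside a median log2 fold of 0.00 over all genes. Of all genes compared, 12.0% were over 2-fold higher in chondrocytes and 16.2% in dermal fibroblasts. E2F target genes were higher in chondrocytes for 18 of 18 under each of the 6 scalings, and 5 of them (*Mcm5*, *Mcm7*, *Rrm2*, *Tk1* and *Cdc45*) were over 2-fold higher. Their median fold was 1.71. Among them, *Pcna*, the sliding clamp of DNA polymerase, was 1.31-fold higher (2566 and 2009 counts), *Rrm1*, a subunit of ribonucleotide reductase, 1.66-fold, *Tk1*, thymidine kinase, 2.17-fold, and *Mcm7*, a subunit of the replicative helicase, 2.18-fold (interval 2.03 to 2.34). The number over 2-fold was sensitive to scaling, with 3 of 18 for DESeq2 factors and 0 of 18 for total counts. The E, A and B cyclins with their kinases were also higher in chondrocytes for 10 of the 10 compared, under each scaling, with a median fold of 1.61. Of these, 2 were over 2-fold higher: *Cdk1*, the mitotic kinase, at 2.37-fold (1877 and 813 counts, interval 2.18 to 2.58), and its activating phosphatase *Cdc25c* at 2.14-fold. The number over 2-fold was 1 with total counts, where *Cdc25c* stayed under it, and 4 with *Actb*. *Ccna2* was 1.86-fold higher (1765 and 973 counts). Of the skeletal muscle markers, 12 of 14 were also higher in chondrocytes with TMM, and the part of muscle cells in both lists was not tested.

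The factors between the kinases and these targets were closer to equal. Of 10 E2F and DP genes, 2 were over 2-fold higher in chondrocytes (background 12.0%) and 0 in dermal fibroblasts (background 16.2%). Their median fold was 1.27. *E2f2*, an activator, was 2.92-fold higher (interval 2.36 to 3.64), and *E2f8*, a repressor active late in the cycle, 2.19-fold, while the most abundant, *Tfdp1* and *E2f4*, lay at 1.26 and 1.27. With total counts *E2f8* stayed under 2-fold, which left 1. None of the 3 retinoblastoma genes passed 2-fold. *Rb1* was 1.21-fold higher in dermal fibroblasts (551 and 685 counts), and *Rbl1*, which encodes p107, was 1.39-fold higher in chondrocytes. Of the 5 genes of the CDK-activating kinase and of D cyclin kinase assembly, *Mnat1* alone was over 2-fold higher in chondrocytes, at 2.02-fold (interval 1.78 to 2.30), and it stayed under 2-fold with DESeq2 factors and with total counts. The chaperones *Hsp90ab1* and *Cdc37* lay at 1.26 and 1.06. *Cdkn3*, a phosphatase that acts on CDKs, was 1.63-fold higher in chondrocytes (162 and 102 counts).

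**Figure D5:**
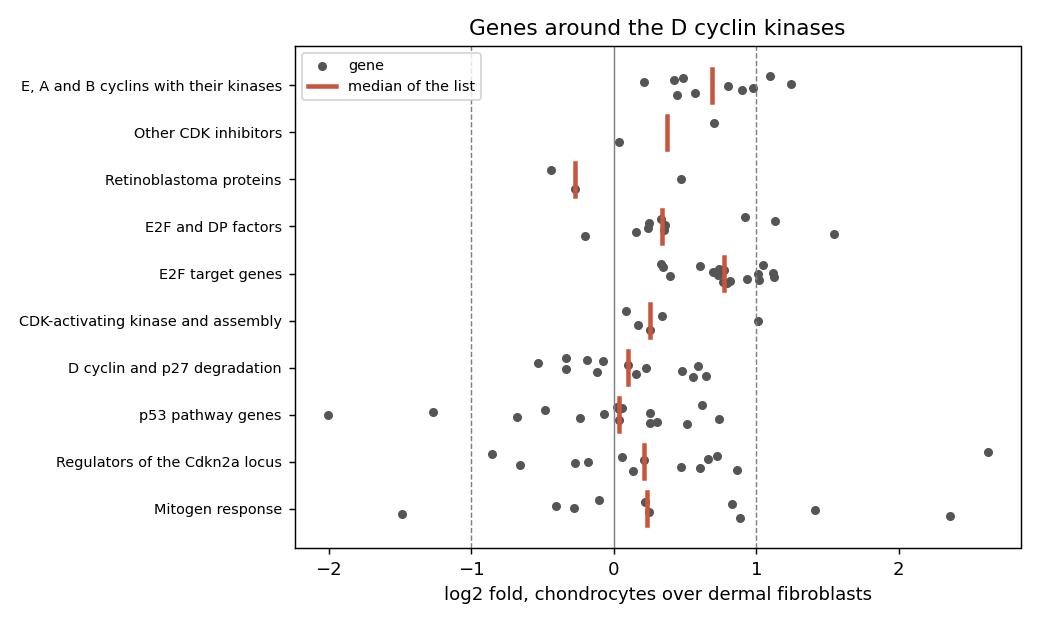
Log2 fold (x axis, chondrocytes over dermal fibroblasts, TMM scaling) of each gene with at least 10 counts in 10 lists of genes around the D cyclin kinases, with red lines at list medians and dashed lines at 2-fold. All 18 E2F target genes lie to the right of 0, and the p53 pathway genes spread on both sides with a median of 0.04.

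Upstream regulators were mixed. Over all genes, 12.0% were over 2-fold higher in chondrocytes and 16.2% in dermal fibroblasts. Beside that background, none of the counts over 2-fold in the lists below is a result about its list. Of 13 genes for the breakdown of D cyclins and p27, 0 passed 2-fold in either direction. *Fbxw8*, an F-box protein for cyclin D1, was 1.5-fold higher in chondrocytes, and *Gsk3b*, the kinase that marks cyclin D1 for export and degradation, was 1.45-fold higher in dermal fibroblasts (1760 and 2619 counts). Of 16 p53 pathway genes, which bear on *Cdkn1a*, 2 were over 2-fold higher in dermal fibroblasts and 0 in chondrocytes: *Pmaip1*, a cell death gene, at 4.02-fold (75 and 310 counts) and *Trp53inp1* at 2.41-fold. *Trp53* was 1.43-fold higher in chondrocytes, and *Ccng1* lay at 1.03. Of 13 regulators of the *Cdkn2a* locus, 1 passed 2-fold, *Id1*, an inhibitor of ETS and bHLH factors, at 6.16-fold higher in chondrocytes (1918 and 320 counts, interval 5.47 to 6.95). The ETS factors themselves differed in opposite directions, *Ets1* at 1.65-fold higher in chondrocytes and *Ets2* at 1.81-fold higher in dermal fibroblasts. In the mitogen response list, 2 of 10 genes were over 2-fold higher in chondrocytes and 1 in dermal fibroblasts. The former were *Mycn* (25 and 5 counts) and *Fosl1*, at 2.66-fold (132 and 51 counts). *Fos*, an immediate early gene, was 2.80-fold higher in dermal fibroblasts (325 and 936 counts), and *Egr1* and *Junb* were 1.33-fold and 1.21-fold higher in dermal fibroblasts.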

How the data were processed

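The study's RNA-Seq covers 1 library of primary chondrocytes and 1 of primary dermal fibroblasts. Per the labels and methods, stranded mRNA libraries were read as 75 bp single ends. The submitters' processing notes name CASAVA 1.8.2, TopHat2 2.0.13, Bowtie2 2.2.3, SAMtools 0.1.19 and the build mm10. The authors deposited raw counts, whole numbers listed by gene symbol and not normalized. The counting program, its annotation and its use of strand are not given in the sources used here.

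Counts were scaled with TMM factors from edgeR 4.0.16 in R 4.3.3. Shares, Poisson and Clopper-Pearson intervals (95%) and folds were computed with Python 3.11.15, scipy 1.17.1 and pandas 2.3.3. Intervals of shares per kilobase are the bounds of the plain-count shares, converted with the mix of the family's other genes held fixed. They leave out counting error in that mix. Counts under 3 were set to 3 in folds, and genes with at least 10 counts over both libraries were compared. No test was possible with 1 library per cell type. Reads carried no molecular identifiers and are not independent molecules, so intervals and floors hold counting error alone. Lengths were those of the longest protein-coding transcript in GENCODE vM1 (NCBIM37), matched by symbol for 89.0% of the genes compared. Positions, overlaps and promoter windows are RefSeq's for GRCm38, the build of the mapping, and none was converted. The calculations were tested on simulated data. The alternatives were scaling by total counts, DESeq2 1.42.0 size factors, the upper quartile, *Actb*, or the total after leaving out each library's 10 top genes; floors of 1 and 10 counts; other count minimums; other thresholds; and other lengths.

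The members and lists were chosen with earlier results of these data known. The text names all members. From each pathway list it names the 2 most abundant genes and up to 2 with the largest fold over 2 in each direction among genes with at least 100 counts over both libraries. From marker lists it names some of the most abundant genes and those at 0. It also names *Myod1*, *Myog*, *Mycn*, *Mcm5*, *Rrm2* and *Cdc45*, which were chosen after their values were seen.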

Additional observations from a re-analysis of the deposited data

How the results depend on the processing

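No paired analysis was possible because there was 1 library of chondrocytes and 1 of dermal fibroblasts. All 10 members kept their direction under the 5 other scalings and both floors. *Cdkn2a* ranged from 3.47-fold to 4.15-fold and *Cdkn2b* from 2.05-fold to 2.45-fold higher in dermal fibroblasts, and *Ccnd3* from 1.66-fold to 1.99-fold and *Cdk6* from 1.51-fold to 1.81-fold higher in chondrocytes. Total counts moved all log2 folds by -0.14 and *Actb* by 0.12, and 10 of 70 member values, all under these scalings, left their counting interval. The 70 include the values under both floors, which could not leave it. Genes higher in chondrocytes made up 42.4% of the calls over 2-fold with TMM, 36.0% with total counts and 48.0% with *Actb*.

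The counts of all genes over 2-fold, 1761 in chondrocytes and 2388 in dermal fibroblasts, moved by over 1.5 times where fewer genes were compared (at least 100 counts, 1035 and 1568) or where the threshold changed (fold over 1.5, 2981 and 3612; whole interval beyond 2-fold, 1031 and 1546). For members, at least 100 counts left 1 in dermal fibroblasts (*Cdkn2b*, since *Cdkn2a* had too few counts), the whole interval beyond 2-fold left 1 (*Cdkn2a*), and a fold over 1.5 gave 2 in chondrocytes.

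Shares depended on the length used. In plain counts, chondrocytes and dermal fibroblasts had 54.0% and 59.6% for *Ccnd2*, 26.4% and 18.2% for *Ccnd3*, 97.8% and 98.8% for *Cdk4*, 90.5% and 85.9% for *Cdkn1a*, 2.09% and 6.87% for *Cdkn2a*, 16.6% and 32.3% for *Cdkn2b*, and 81.3% and 60.9% for *Cdkn2c*, with 22.3% for *Ccnd1* in dermal fibroblasts. With exon union lengths, added after the data were seen, they were 36.0% and 43.0% for *Ccnd2*, 44.5% and 33.1% for *Ccnd3*, 98.1% and 99.0% for *Cdk4*, and 95.1% and 92.6% for *Cdkn1a*. Depth limits *Cdkn2a*, with 16 counts in chondrocytes, and *Cdk6*, with 76 in dermal fibroblasts.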

Other observations

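*Cdkn1c*, the imprinted Cip/Kip gene left out by the rule, was named after its values were seen. It encodes p57, which is required for growth plate chondrocytes to leave the cell cycle. It was 2.44-fold higher in chondrocytes (3182 and 1339 counts, interval 2.29 to 2.60). Per kilobase of transcript its level was 91.9 CPM in chondrocytes and 37.7 CPM in dermal fibroblasts, below *Cdkn1a* (167.6 and 136.5 CPM per kb) and above *Cdkn1b* (7.41 and 9.39 CPM per kb) in both libraries.

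Of 8 genes listed as hypertrophic chondrocyte markers, 7 were over 2-fold higher in chondrocytes, with *Spp1* at 2.90-fold (9639 and 3413 counts) and *Col10a1* at 10378 counts against 3. The chondrocyte library thus held these transcripts together with the higher levels of E2F target genes and of *Cdk1* given above. Whether the marker transcripts came from hypertrophic cells, and whether the E2F target transcripts came from the same cells, was not tested.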
